A study of Mus musculus with 16 samples.

Results

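The sites described here are the Foxa1 peaks that were listed at both times of the study, early and late after the factor was introduced. They were chosen by position alone: a peak of the Foxa1 day 30 list was taken when it overlapped a peak of the Foxa1 day 2 list by 1 bp or more. This gave 294 of the 3331 Foxa1 day 30 peaks (8.83%), of 4839 peaks in all 8 lists. They are called both-day sites below, and the 3037 Foxa1 day 30 peaks without such an overlap are called the other Foxa1 peaks.

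The data are chromatin immunoprecipitation sequencing (ChIP-seq) peak lists from mouse embryonic fibroblasts (MEFs), connective tissue cells prepared here from C57BL/6 embryos of 13.5 days post coitum. Cultures were infected with a single factor, Foxa1, Foxa2, Foxa3 or Hnf4alpha (written Hnf4a below), and precipitated with an antibody to that same factor on day 2 or day 30. Each combination of factor and day had 1 ChIP sample and 1 input sample without antibody, 16 samples in total, and the 8 ChIP samples carry the peak lists. The labels give MEF as the stage on both days and name neither the vector nor the share of infected cells, and no list from uninfected cells was analysed here. With 1 sample per factor and day, no value below has an error between cultures, and read depth is unknown. A site missing from a list is therefore not shown to be unbound.

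Foxa proteins are forkhead transcription factors with a winged-helix DNA-binding domain. They are known as pioneer factors, because they can bind their sites on DNA wrapped in nucleosomes, and they are needed for the early specification of the liver from endoderm. Foxa1, Foxa2 and Foxa3 have closely similar DNA-binding domains and overlapping targets in hepatocytes. Hnf4a is a nuclear receptor that controls many hepatocyte genes, and Hnf4a together with a Foxa protein can turn fibroblasts into hepatocyte-like cells. Fibroblasts do not normally rely on these factors, so the lists show where each factor, supplied alone, was found on fibroblast chromatin.

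All positions are 1-based on the mouse build mm9, and no gene, start site or motif was assigned, since no mm9 sequence or annotation was used here. Each peak has a deposited score, read as −log10 of its p-value, which is the authors' own value. It grows with read depth as well as with binding, so scores rank peaks within a list and are not compared between lists.

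At most both-day sites the centres of the early and late peaks were within 50 bp of each other. The rule asked for only 1 bp, but it also keeps narrow peaks near each other, so these distances are a description. For the strongest day 2 peak at each site, 187 of 294 (63.6%) lay wholly inside the day 30 peak, 104 overlapped it in part, and 3 covered it entirely. These 3, named after their values were seen, were narrow late peaks on chromosome 1 (138241179 to 138241261, 83 bp), chromosome 2 (163319700 to 163319780, 81 bp) and chromosome 14 (62301284 to 62301386, 103 bp). None was in a list of another factor, and neither were 67.3% of all both-day sites. Among all Foxa1 day 30 peaks, 9.16% were in such a list. The centres of the peaks were a median of 34 bp apart (quartiles 15.1 and 72.75 bp), within 50 bp at 190 sites (64.6%) and within 100 bp at 253 (86.1%). The largest distance was 392 bp. Relative to width, the day 2 centre lay a median of 36.0% of the way from the middle of the day 30 peak to its edge. In 21 sites the day 2 centre fell outside the day 30 peak.

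The day 30 peak was the wider of the pair at 266 sites and the day 2 peak at 28. Day 30 peaks were wider in the lists as a whole too, with a median of 119 bp against 82 bp and a shortest peak of 76 bp against 56 bp. At the both-day sites the median ratio of widths was 2.11, and the day 2 peaks covered a median of 42.7% of the day 30 peak. Most sites held a single day 2 peak (279), while 11 held 2 and 4 held 3. In the other direction, 312 of the 442 day 2 peaks lay at a both-day site, and 1 of these touched 2 sites.

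**Figure D1:**
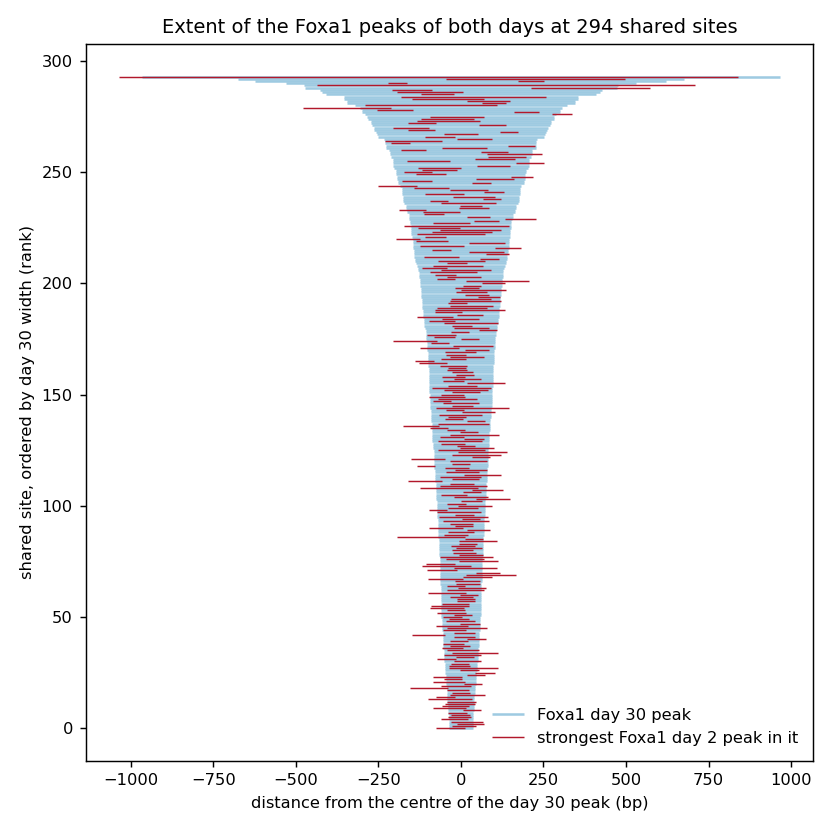
Each row is 1 both-day site, ordered by the width of its Foxa1 day 30 peak (blue line), with the strongest Foxa1 day 2 peak at the site (red line). The horizontal axis is the distance in bp from the centre of the day 30 peak. The red lines gather around 0, with a median centre distance of 34 bp, and are shorter than the blue lines at 266 of 294 sites.

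The sites at the edge of the rule were as follows. The smallest overlap was 3 bp, on chromosome 1 (109611909 to 109611994, day 30 score 11.3), where the day 2 peak ended just inside the late peak. It was 4 bp on chromosome 10 (126576261 to 126576423, score 13.9) and 5 bp on chromosome 6 (72138994 to 72139088, score 10.2). In all, 7 sites overlapped by under 20 bp, against a median overlap of 76 bp. None of these 3 sites was in a list of another factor. That held for 94.5% of the 110 both-day sites and 96.4% of the 2556 other peaks scoring under 15.

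Just outside the rule lay a peak on chromosome 12 (58418587 to 58418665, score 8.98), 3 bp away from a day 2 peak. The next were on chromosome 10 (24792471 to 24792813, score 10.2), with a gap of 4 bp, and on chromosome 1 (75334477 to 75334904, score 23.6), with 5 bp. A further band of near misses surrounds the set: 22 of the other Foxa1 peaks were within 100 bp of a day 2 peak, and 113 within 1000 bp.

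Both-day sites were wider and higher-scoring than the other Foxa1 peaks, which is a property of the lists that chose them and carries no test. Their median day 30 width was 189 bp (quartiles 128 and 294) against 116 bp (90 and 159), and their median day 30 score was 18.5 (12.6 and 24.96) against 10.2 (7.998 and 12.6). The 10 highest-scoring peaks of the day 30 list were all both-day sites, as were 38 of the top 50, 67 of the top 100 and 158 of the top 442. The first peak that was not one ranked 17. In the day 2 list the 10 highest peaks all lay at both-day sites, followed by 45 of the top 50 and 84 of the top 100.

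The share of day 30 peaks that were both-day sites rose steadily with the day 30 score. It was 4.13% of 2666 peaks scoring under 15, 15.3% of 391 from 15 to 20, 32.9% of 170 from 20 to 25, 54.9% of 51 from 25 to 30, and 75.5% of 53 (exact 95% interval 61.7 to 86.2%) scoring 30 or more. By width, it was 2.84% in the narrowest of 4 groups of day 30 peaks (up to 91 bp) and 20.1% in the widest (over 168 bp). A wider peak also has more room to overlap.

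Among the both-day sites themselves, the early and late scores went together only loosely. Spearman's rho between them was 0.281 over the 294 sites, and 0.0894 between day 30 width and day 2 score. These points share their libraries, so the values are descriptions. The day 30 score followed the day 30 width more closely, with a rho of 0.468, against 0.340 in the other Foxa1 peaks. The day 2 scores are also coarse. They took 64 distinct values, and 3 of these, 9.47, 10.8 and 8.19, were shared by 40, 32 and 31 sites. Under a day 2 score of 10 lay 191 sites, and 9 were above 20.

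**Figure D2:**
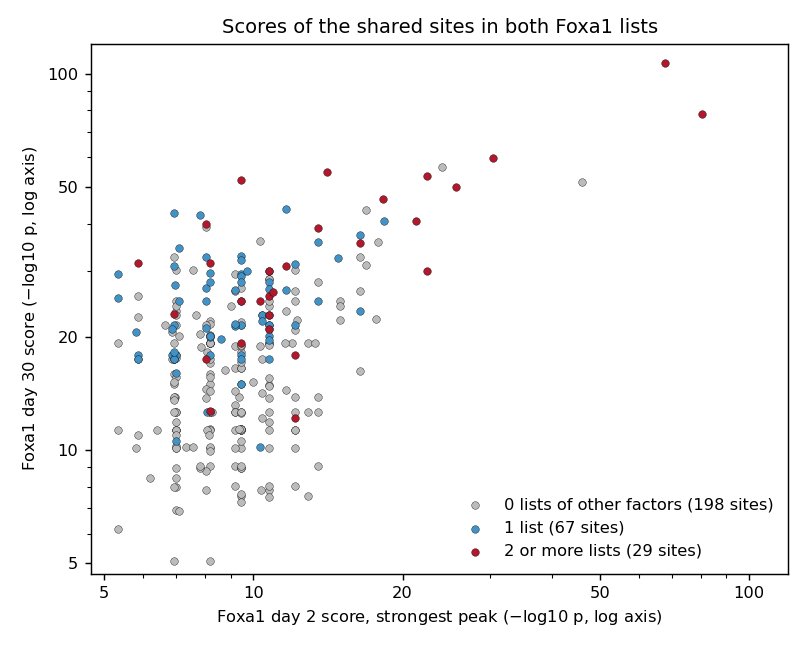
Each point is 1 of the 294 both-day sites, with the score of its strongest Foxa1 day 2 peak on the horizontal axis and its Foxa1 day 30 score on the vertical axis (both −log10 p, log axes). Colour gives the number of lists of other factors that hold the site. The points form vertical stripes at repeated day 2 scores, and the sites in 2 or more lists of other factors (29, red) lie mostly in the upper part.

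The strongest both-day sites were few and varied in how many other factors shared them. On chromosome 17 (35848391 to 35849101) Foxa1 scored 67.6 on day 2 and 107.1 on day 30, the highest of its list, and the 441 bp early peak lay inside the 711 bp late one. Foxa2 and Foxa3 were listed there only on day 30, with scores of 14.5 and 16.04. On chromosome 10 (86307389 to 86309322) the peaks were nearly as wide on both days, 1878 and 1934 bp, and shared 1808 bp. That site scored 80.2 on day 2, the highest of the early list, and 78.3 on day 30. Foxa2 scored 25.3 there on day 2 and 21.5 on day 30, and Foxa3 14.6 on day 30.

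The 1352 bp site on chromosome 4 (3733814 to 3735165) scored 59.8 on day 30 and held 3 separate day 2 peaks, the strongest scoring 30.5. It was in both day 30 lists of the other Foxa proteins, with scores of 9.46 for Foxa2 and 18.8 for Foxa3. Only 55 bp further on, another both-day site (3735221 to 3735332) scored 11.9 and was in no other factor's list. A second site on the same chromosome (41577181 to 41577727, day 30 score 54.8, day 2 score 14.1) was the single both-day site in 4 lists of other factors. Its scores were 7.998 for Foxa2 day 2, 12.5 for Foxa2 day 30, 5.28 for Foxa3 day 2 and 25.7 for Foxa3 day 30.

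The 4 sites in 3 lists of other factors were also named after their values were seen, and include the site on chromosome 10 above. Another on chromosome 10 (120284374 to 120284604) had Foxa1 scores of 21.3 on day 2 and 40.7 on day 30, Foxa2 scores of 9.85 and 11.3, and a Foxa3 day 30 score of 16.5. The site on chromosome 13 (99585033 to 99585176) is a narrow one of 144 bp, with Foxa1 scores of 18.2 and 46.6 and a Foxa3 day 30 score of 9.80. It held the highest score of the whole Foxa2 day 30 list, 33.6. The fourth, on chromosome 7 (122236239 to 122236742), had Foxa1 scores of 10.3 and 24.96 and lacked only Foxa2 day 2 among the Foxa lists.

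High Foxa1 scores on both days did not always come with the other Foxa proteins. At a day 30 score of 30 or more, 12 of 40 both-day sites (30%) were in no list of another factor. The same was true of 5 of the 13 other Foxa1 peaks at such scores (38.5%). The site on chromosome 16 (93591701 to 93591938) had the fourth-highest day 30 score, 56.5, and a day 2 score of 24.0, and was in no list of another factor. The same held for chromosome 6 (113960811 to 113961763), with 46.1 on day 2 and 51.6 on day 30. By contrast, the site on chromosome 13 (41447721 to 41447976), with scores of 25.6 and 49.9, was shared with Foxa2 day 30 (7.06) and Foxa3 day 30 (14.5).

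At the other end, the lowest day 30 scores among both-day sites were 5.08 on chromosome 13 (90131126 to 90131248), 5.08 on chromosome 7 (96409448 to 96409595) and 6.17 on chromosome 1 (138241179 to 138241261). Their day 2 scores were 6.92, 8.19 and 5.33. All 3 were narrow, from 83 to 148 bp, and none was in a list of another factor. On the day 30 list they ranked 3311, 3329 and 3235 of 3331.

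Some wide sites scored moderately and were split into several early peaks. The third widest, on chromosome 14 (100045085 to 100046329, 1245 bp), scored 25.6 on day 30 and held 2 day 2 peaks of at most 10.8. Each within its own list, Foxa3 scored 24.5 there on day 30 and Foxa2 5.32. On chromosome 1, a 709 bp site (138836112 to 138836820, day 30 score 21.5) and a 948 bp site (181971953 to 181972900, day 30 score 24.96) held 3 early peaks each, as did a 1060 bp site on chromosome 18 (44044944 to 44046003, day 30 score 22.8). The first of these was shared with Foxa2 day 30 (7.58), the second with no other factor, and the one on chromosome 18 with Foxa2 (6.43) and Foxa3 (10.3) on day 30.

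The 294 sites were spread over 19 autosomes and the X chromosome. Neighbouring sites on a chromosome were a median of 4.60 Mb apart, and 8 of 274 neighbouring pairs lay within 20 kb. Besides the pair on chromosome 4, the closest pairs were on chromosome 12 (58417170 to 58417363 and 58417423 to 58417960, a gap of 59 bp) and on chromosome 14 (47449843 to 47450148 and 47450232 to 47450317, 83 bp). In both pairs the wider peak was listed for 1 other Foxa protein on day 30, Foxa2 on chromosome 12 and Foxa3 on chromosome 14, and the narrower peak for none.

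By chromosome, both-day sites made up between 3.45% (1 of 29 peaks on X, interval 0.0873 to 17.8%) and 11.6% (20 of 172 on chromosome 13, 7.25 to 17.4%) of the Foxa1 day 30 peaks. Chromosome 1 had the most, 30 of 262 (11.5%, 7.86 to 15.9%). Every chromosome's interval contains the overall 8.83%. Another Foxa1 day 30 peak lay within 2000 bp of 83 both-day sites (28.2%, 23.2 to 33.7%) and of 637 other Foxa1 peaks (21.0%, 19.5 to 22.5%). The rule used this same list, and score and width were not matched, so the spacing is a description and carries no test.

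The lists of the other factors were not used to choose the sites, and 9.16% of all Foxa1 day 30 peaks were in at least 1 of them. Among both-day sites the number was 96 of 294 (32.7%, exact 95% interval 27.3 to 38.3%), and among the other Foxa1 peaks 209 of 3037 (6.88%, 6.01 to 7.84%). The intervals cover counting error only, and they treat peaks of 1 library as independent. The remaining 198 both-day sites (67.3%) were in no list but those of Foxa1. Of the sharing sites, 67 were in 1 list of another factor, 24 in 2, 4 in 3 and 1 in 4. In 2 or more lists were thus 29 both-day sites (9.86%, 6.71 to 13.9%), against 1.53% of all Foxa1 day 30 peaks.

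Sharing was with Foxa2 and Foxa3, and mainly with their day 30 lists. Foxa2 day 30 held 56 both-day sites (19.0%, 14.7 to 24.0%), against 4.50% of all Foxa1 day 30 peaks and 94 of the other Foxa1 peaks (3.10%, 2.51 to 3.77%). Foxa3 day 30 held 62 (21.1%, 16.6 to 26.2%), against 5.67% of all and 127 of the others (4.18%, 3.50 to 4.96%). The pooled difference was 15.95 percentage points for Foxa2 (95% interval 11.8 to 20.9) and 16.9 for Foxa3 (12.6 to 22.0).

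The day 2 lists of Foxa2 and Foxa3, with 23 and 146 peaks, held few both-day sites. Foxa2 day 2 held 9 (3.06%, 1.41 to 5.73%; 0.540% of all Foxa1 day 30 peaks) and Foxa3 day 2 held 3 (1.02%, 0.211 to 2.95%; 0.120% of all). At the 9 Foxa2 sites the Foxa2 day 2 score ran from 6.31 over a median of 8.63 to 25.3, and the Foxa1 day 30 score from 12.2 to 78.3. Each of these 9 was also in a day 30 list of Foxa2 or Foxa3 or both. The 3 Foxa3 sites, named after their values were seen, were the site in 4 lists on chromosome 4, one on chromosome 7 (122236239 to 122236742, Foxa3 scores 6.496 on day 2 and 19.6 on day 30) and a site on chromosome 8 (45240916 to 45241495, scores of 6.42 and 15.1).

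Hnf4a hardly met any Foxa1 day 30 peak, both-day site or not, with 2 of all 3331 in its day 30 list. No both-day site was in the Hnf4a day 2 list, which has 10 peaks (0% of all Foxa1 day 30 peaks); 0 of 294 allows a share of up to 1.02% by the limit of 3 counts, and the exact interval reaches 1.25%. In the Hnf4a day 30 list was 1 (0.340%, 0.00861 to 1.88%; 0.0600% of all). That site lies on chromosome 5 (143582301 to 143582551), with Foxa1 scores of 11.6 on day 2 and 30.9 on day 30, a Foxa2 day 30 score of 8.21 and a Hnf4a score of 6.77. It is also the only both-day site inside a dense block of peaks, 143574274 to 143585201, which holds 15 Hnf4a day 30 peaks, and none remains when such blocks are left out.

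**Figure D3:**
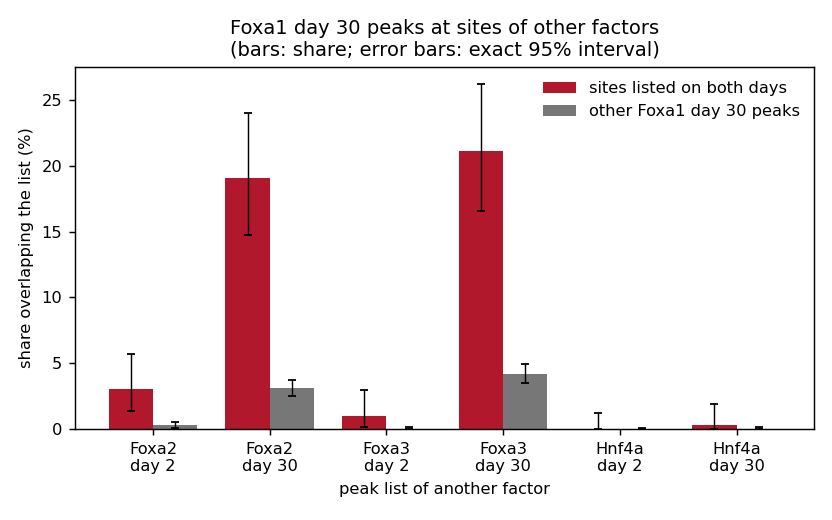
Bars give the share (%) of both-day sites (red, 294) and of the other Foxa1 day 30 peaks (grey, 3037) that overlap each of the 6 lists of other factors, with exact 95% intervals as error bars. The red bars reach 19.0% for Foxa2 day 30 and 21.1% for Foxa3 day 30, and the grey bars 3.10% and 4.18%.

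The shares were also compared among peaks of similar day 30 score. In the highest of 4 score groups (above 13.7), which holds 200 of the both-day sites, 28% of them were in Foxa2 day 30 against 11.3% of the 602 other peaks, and 28.5% against 12.0% in Foxa3 day 30. Even inside that group the both-day sites scored higher, with a median of 21.6 against 17.5. In the 3 lower groups together Foxa2 day 30 held 0 of 94 both-day sites, which allows a share of up to 3.19% by the limit of 3 counts (exact interval to 3.85%). It held 26 of 2435 other peaks there (1.07%, 0.699 to 1.56%), so a difference in these groups was not detectable with so few sites. The lowest Foxa1 score of any both-day site in Foxa2 day 30 was 14.96.

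Narrower bands of score, set after the data were seen, gave smaller Foxa2 differences than the pooled one. From 15 to 20, 8 of 60 both-day sites (13.3%) and 24 of 331 other peaks (7.25%) were in Foxa2 day 30. From 20 to 25, 16 of 56 both-day sites (28.6%, 17.3 to 42.2%) and 28 of 114 other peaks (24.6%, 16.98 to 33.5%) were in Foxa2 day 30. The Foxa2 difference was -0.23 points under 15 and between 4.01 and 6.35 points in the 4 higher bands, and its interval contained 0 in all 5 bands. At a score of 30 or more it was 6.35 points (-22.6 to 33.5), with 21 of 40 both-day sites and 6 of 13 others. In each of the 4 higher bands, a difference as large as the pooled one was still within the interval.

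For Foxa3 day 30 the bands were less even. The difference was 2.04 points under a score of 15, 9.27 points from 15 to 20 (0.710 to 21.2), 2.162 from 20 to 25 (-10.2 to 16.3), 24.7 from 25 to 30 (-1.62 to 46.2) and 19.2 at 30 or more (-11.4 to 42.6). Only the band from 15 to 20 had an interval above 0, with 11 of 60 both-day sites and 30 of 331 others. In that band the both-day sites were also wider, a median of 205 bp against 151 bp, and the part of width in these shares was not tested apart from the groups of width. Among the widest of the 4 width groups, the shares in Foxa3 day 30 were 33.5% of 167 both-day sites and 11.6% of 665 others, and in Foxa2 day 30 they were 25.7% and 6.62%. The Foxa2 difference had an interval above 0 in all 4 width groups, from 7.09 points (1.77 to 16.1) to 19.1 points (12.7 to 26.4). Score was not matched within these groups. Both-day sites had the higher median score in each, from 10.2 against 9.08 in the narrowest to 21.5 against 12.6 in the widest.

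**Figure D4:**
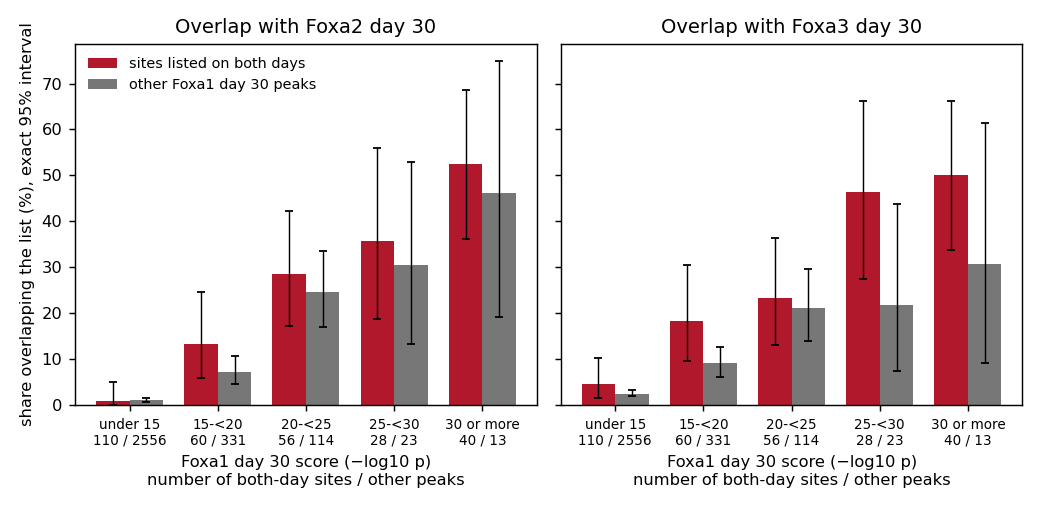
Bars give the share (%) of both-day sites (red) and other Foxa1 day 30 peaks (grey) in the Foxa2 day 30 list (left) and the Foxa3 day 30 list (right), by band of Foxa1 day 30 score, with exact 95% intervals and the number of peaks under each pair of bars. Both colours rise with the score, for Foxa2 from 0.909% and 1.13% under 15 to 52.5% and 46.2% at 30 or more.

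Sites held by all Foxa proteins on day 30 were often both-day sites. Of the 38 Foxa1 day 30 peaks in both Foxa2 day 30 and Foxa3 day 30 (1.14% of all), 22 were both-day sites (57.9%, 40.8 to 73.7%). The corresponding numbers were 34 of 112 with Foxa2 alone of that pair (30.4%, 22.0 to 39.8%), 40 of 151 with Foxa3 alone (26.5%, 19.6 to 34.3%) and 198 of 3026 in no list of another factor (6.54%, 5.69 to 7.48%). These shares were not matched on score. Both-day sites made up 54.9% of all Foxa1 day 30 peaks scoring from 25 to 30, and 75.5% at 30 or more. The 22 sites had the highest median day 30 score, 37.2, against 22.4 with Foxa2 alone and 22.2 with Foxa3 alone. Their median width was 371 bp, against 197.5 and 306.5 bp.

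Foxa2 and Foxa3 also tended to be listed at the same both-day sites. Of the 62 sites in Foxa3 day 30, 22 were in Foxa2 day 30 (35.5%, 23.7 to 48.7%), against 34 of the 232 without Foxa3 (14.7%, 10.4 to 19.9%). The same direction was seen in the other Foxa1 peaks, with 16 of 127 (12.6%, 7.38 to 19.7%) and 78 of 2910 (2.68%, 2.12 to 3.33%).

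The 96 both-day sites shared with another factor were stronger and wider on day 30 than the 198 that were not, and closer to them on day 2. Their median day 30 score was 24.96 against 14.7, and their median width 261 bp against 158 bp. The strongest day 2 peak had a median score of 9.47 against 9.20 and a median width of 93.5 bp against 84 bp.

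Where another Foxa protein was listed on day 30, its peak mostly touched the early Foxa1 peak as well as the late one. Overlap with the late peak was required here, which limits the distances below. Foxa3 day 30 peaks at both-day sites had a median width of 244 bp, and the part of width in this contact was not tested. Foxa2 day 30 centres were a median of 30.25 bp from the Foxa1 day 30 centre and 29.25 bp from the day 2 centre, and 51 of the 56 sites had a Foxa2 peak touching the early Foxa1 peak itself. For Foxa3 day 30 the distances were 41.5 and 42.5 bp, and 56 of 62 sites had such a contact. At the other Foxa1 peaks the distances to the day 30 centre were 23.75 bp for Foxa2 and 41.5 bp for Foxa3. Over the 56 sites, the Foxa2 day 30 score had a Spearman's rho of 0.523 with the Foxa1 day 30 score and 0.193 with the Foxa1 day 2 score. Over the 62 Foxa3 sites these were 0.223 and 0.287. The points share libraries, so these are descriptions.

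Seen from the other lists, both-day sites took up 59 of the 174 Foxa2 day 30 peaks (33.9%, 26.9 to 41.5%) and 62 of the 265 Foxa3 day 30 peaks (23.4%, 18.4 to 29.0%). Within Foxa3 day 30, the peaks at both-day sites had a median score of 12.3 (quartiles 9.06 and 15.1), against 9.93 (8.43 and 12.5) at other Foxa1 peaks and 10.1 (8.16 and 13.2) at no Foxa1 day 30 peak. Within Foxa2 day 30 the medians were 8.21, 7.95 and 7.79, close together beside quartiles of 7.28 and 10.8 at the both-day sites. Of the 23 Foxa2 day 2 peaks, 9 were at both-day sites, 9 at other Foxa1 peaks and 5 at no Foxa1 day 30 peak. Of the 146 Foxa3 day 2 peaks, 142 were at no Foxa1 day 30 peak.

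**Figure D5:**
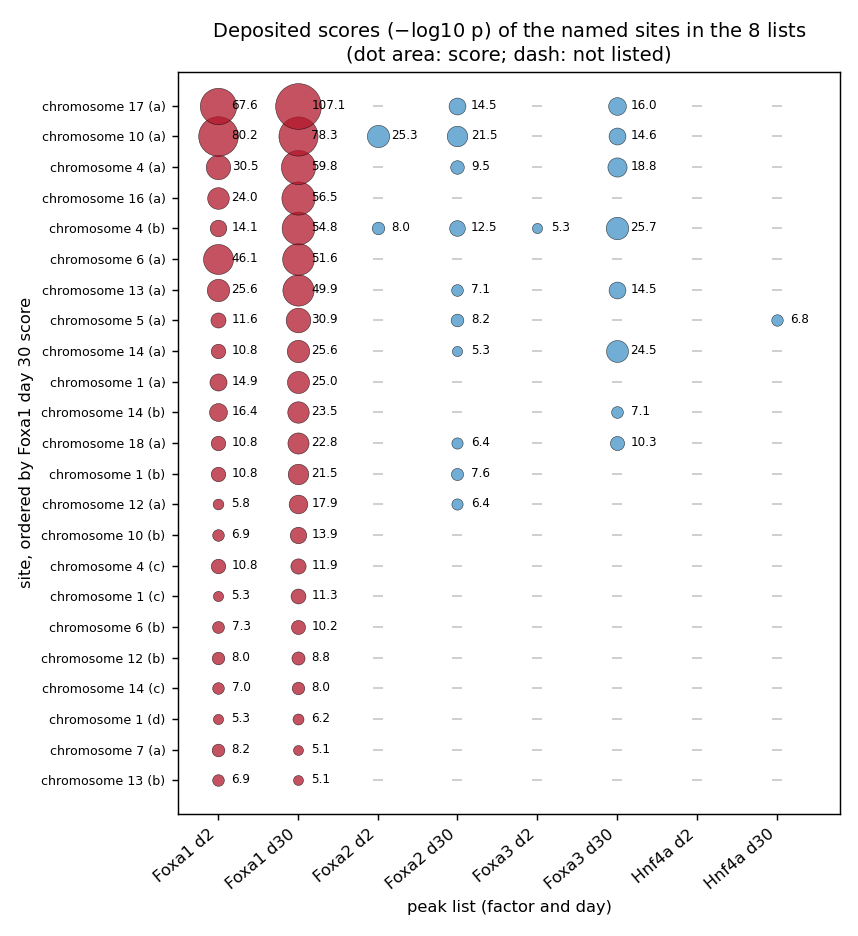
Rows are the 23 both-day sites set out by rule in the text (strongest, weakest, widest, most shared, edge of the rule, most early peaks, closest pairs), ordered by Foxa1 day 30 score, and letters tell sites of a chromosome apart. Columns are the 8 peak lists, dot area and the number beside it give the deposited score (−log10 p), and a dash means that the site is not in the list. The Foxa2 and Foxa3 dots gather in the upper rows, which were chosen in part by score and by sharing. The lowest dot of another factor in these rows stands at a Foxa1 day 30 score of 17.9. Over all both-day sites, Foxa3 day 30 was listed down to a score of 10.2.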

How the data were processed

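ChIP-seq peaks were deposited by the authors as 8 tables without a header, 1 per ChIP sample, with a position, a name and a score. As no header gives the unit, the deposited score was taken for a −log10 p-value because the lowest value is 5.02. Per the submitters' processing notes, the authors used MACS2 2.1.0, BWA 0.6.2, bedtools 2.16.2 and build mm9. The roles of the tools, the peak threshold and the use of the inputs are not given in the sources used here, and the 8 inputs were not used.

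Samples were grouped by their titles. Overlap means 1 bp or more. Shares carry exact Clopper-Pearson 95% intervals, and differences of shares carry Newcombe intervals from Wilson limits. For a count of 0, the share that 3 counts would give is printed beside the exact limit. No test between samples is possible with 1 per group, and the planned motif and gene counts were not run. Named sites follow a rule: highest and lowest scores, widest, most lists, Hnf4a overlap, smallest overlap, most day 2 peaks and closest pairs. The sites and rules were chosen with earlier results of these data known. Overlap counting was tested on simulated lists. Python 3.11.15, NumPy 2.4.6, SciPy 1.17.1 and Matplotlib 3.10.9 were used.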

Additional observations from a re-analysis of the deposited data

How the results depend on the processing

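No paired analysis was possible because each factor and day has 1 ChIP sample. Read depth is unknown. The number of both-day sites was 276 with an overlap of 50% of the shorter peak, 381 with centres within 500 bp, 291 with peaks merged over 500 bp and 293 without dense blocks (10 or more peaks of any list with gaps of at most 20 kb). It was 158 with the day 30 list reduced to 442 peaks and 21 at a stricter score of 15.07 in all lists. Scores are not comparable between lists, so this cut falls unequally on them. Of the 294 sites, 191 had a day 2 score under 10. With every list cut at that score, 9.52% of the 21 (2 sites) were in Foxa2 day 30, and 0% in Foxa3 day 2 and Hnf4a day 30. Without dense blocks, which takes out 1 site, Hnf4a day 30 held 0%. The share in no list of another factor stayed between 65.6% and 71.4% under the 4 alternatives run for it.

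The difference in share between both-day sites and other Foxa1 peaks was also taken, in percentage points, within groups of score and width. From the lowest to the third score group it was -0.36, -0.86 and -2.00 for Foxa2 day 30, and -1.45, 5.06 and 2.77 for Foxa3 day 30. From the narrowest to the third width group it was 7.60, 8.84 and 7.09 for Foxa2, and -0.73, 5.39 and 1.56 for Foxa3. In the widest it was 19.1 (12.7 to 26.4) and 21.95 (14.7 to 29.7). All 4 Foxa2 width groups had intervals above 0, though score was not matched within them. In the score bands, chosen after the data were seen, the difference was -0.23, 6.08, 4.01, 5.28 and 6.35 for Foxa2. For Foxa3 it was 2.04, 9.27, 2.162 and 24.7 below a score of 30. With score and width both split at their medians, also chosen later, it was -0.48 and -0.85 for Foxa2 at low scores (narrow and wide), and 12.3 (3.32 to 28.4) and 16.05 (10.5 to 22.4) at high scores. For Foxa3 it was 4.501 and 0.55 at low scores, and 0.65 and 17.03 (11.0 to 23.7) at high scores. In the highest group of both score and width, it was 16.04 for Foxa2 and 18.1 for Foxa3. Even there the both-day sites had a median score of 23.5 against 17.9 and a median width of 282.5 bp against 238 bp. In the wide group at high scores these medians were 21.03 against 13.9 and 225 bp against 175 bp.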

Other observations

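The 130 Foxa1 day 2 peaks that overlapped no day 30 peak differed from the 312 at both-day sites in the lists they met. This split used the Foxa1 day 30 list, which overlaps most day 30 peaks of Foxa2 and Foxa3. Only 20 of the 174 Foxa2 day 30 peaks and 84 of the 265 for Foxa3 were at no Foxa1 day 30 peak. The split itself therefore limits the comparisons with those lists, which are a description. None of the 130 was in Foxa3 day 30, against 58 of 312 (18.6%, exact 95% interval 14.4 to 23.4%), and 0 of 130 allows a share of up to 2.31% by the limit of 3 counts (exact interval to 2.80%). In Foxa2 day 30 were 2 (1.54%, 0.187 to 5.45%), against 52 (16.7%, 12.7 to 21.3%). In Hnf4a day 30 were 5 of the 130 (3.85%, 1.26 to 8.75%) and in Foxa3 day 2 also 5, against 1 and 2 of the 312. These sets overlap, since only 7 of the 130 were in any list of another factor, against 91 of the 312. Of the 130, 5 lay in dense blocks of peaks, against 1 of the 312. Those 5 lay in blocks on chromosome 9 (3000026 to 3038273) and chromosome 2 (98502420 to 98507457). The 2 blocks held 92 and 7 Foxa3 day 2 peaks, and 74 and 9 Hnf4a day 30 peaks. Whether the same 5 peaks make up these counts was not tested. The 130 were narrower, with a median of 74 bp against 86.5 bp, and scored lower, with a median of 8.12 against 9.20. The highest of them ranked 11 in the day 2 list, and 24 were within 1000 bp of a day 30 peak.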
